A study of Homo sapiens with 9 samples.

Results

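Regions bound by both ARID1A and ARID1B, with no ARID2 peak, made up 801 of the 25247 merged ARID regions of HepG2 cells (3.17%). HepG2 is a human liver cancer cell line, here grown without treatment. The binding of ARID1A, ARID1B, ARID2 and SNF5 was mapped by ChIP-seq on chromatin digested with micrococcal nuclease. Per the labels each of the 4 antibodies was used in 2 replicates, beside 1 input library. The members were chosen by peak presence in the 3 ARID lists: peaks sharing at least 1 bp were merged, and a merged region was kept if it held an ARID1A and an ARID1B peak and none of ARID2. The authors called 1 peak list per antibody on the merged replicates, so the values below have no replicate error, the depth behind each list is unknown, and differences between subunits cannot be told apart from differences between antibodies or library depths. The tests compare lists of regions, which are not replicates of a condition.

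SWI/SNF complexes use the energy of ATP to slide or evict nucleosomes. ARID1A and ARID1B are paralogous, mutually exclusive subunits of the BAF form of the complex, ARID2 belongs to the PBAF form, and SNF5 (SMARCB1) is a core subunit shared by BAF and PBAF. BAF complexes are known for binding at enhancers as well as promoters, often beside AP-1, the dimer of FOS and JUN proteins. In hepatocytes many enhancers also carry sites for the liver factors FOXA, HNF4, CEBP and HNF1.

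The sequences below are shown because they hold the letters counted in the motif comparison, and they are 4 of the 10 regions placed first by the number of motif kinds they hold. Each is the plus strand of GRCh37 (hg19), 5′ to 3′, and is the central 300 bases where the region was longer. Capitals mark matches on either strand to AP-1 (TGANTCA, any middle base), FOXA (TGTTTAC), HNF4 (CAAAGTCCA), CEBP (TTGCNNAA) and SP/KLF (GGGCGG).
SLC7A5 intron, chr16:87894176-87894475: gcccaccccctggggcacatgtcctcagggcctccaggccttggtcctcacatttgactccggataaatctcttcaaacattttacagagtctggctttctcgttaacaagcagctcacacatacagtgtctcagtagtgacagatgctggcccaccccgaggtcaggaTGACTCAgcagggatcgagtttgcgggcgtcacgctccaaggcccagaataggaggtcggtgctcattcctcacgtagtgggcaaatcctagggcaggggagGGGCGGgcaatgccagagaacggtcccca
SLC7A5 promoter class, chr16:87896404-87896703: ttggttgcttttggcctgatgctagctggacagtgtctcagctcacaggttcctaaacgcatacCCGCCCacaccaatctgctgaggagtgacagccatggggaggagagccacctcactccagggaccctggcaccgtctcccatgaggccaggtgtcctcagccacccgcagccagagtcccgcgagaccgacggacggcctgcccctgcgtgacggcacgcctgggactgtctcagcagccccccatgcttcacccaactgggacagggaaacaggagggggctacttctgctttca
Intronic region with U6 as nearest name, chr3:172414232-172414477: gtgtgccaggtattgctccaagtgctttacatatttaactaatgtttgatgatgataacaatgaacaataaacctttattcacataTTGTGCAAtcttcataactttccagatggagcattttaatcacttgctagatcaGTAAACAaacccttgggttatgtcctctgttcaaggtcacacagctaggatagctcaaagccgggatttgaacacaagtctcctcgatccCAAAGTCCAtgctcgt
Distal region with Metazoa_SRP as nearest name, chr3:193461687-193461922: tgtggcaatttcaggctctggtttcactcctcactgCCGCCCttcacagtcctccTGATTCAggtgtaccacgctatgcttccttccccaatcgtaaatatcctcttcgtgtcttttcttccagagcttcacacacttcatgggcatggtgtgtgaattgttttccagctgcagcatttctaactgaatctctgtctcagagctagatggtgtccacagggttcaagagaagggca
The region in an intron of SLC7A5, a transporter of large neutral amino acids, held an AP-1 and an SP/KLF match. The intronic region on chromosome 3 held FOXA, HNF4 and CEBP matches. The names U6 and Metazoa_SRP stand for small RNA genes with many copies in the genome, so these nearest gene names are uncertain.

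The pairs of peaks varied widely in how they lay on each other. In 782 of the 801 regions there was exactly 1 ARID1A and 1 ARID1B peak. The ARID1A peak of the pair had a median width of 232 bp (quartiles 143 and 395) and the ARID1B peak a median of 208 bp (quartiles 118 and 338). The ARID1B peak lay within the ARID1A peak in 233 regions (29.1%), the ARID1A peak lay within the ARID1B peak in 159 (19.9%), and the peaks overlapped in part in 409 (51.1%). A median of 105 bp was shared, and 644 regions (80.4%) shared at least 50% of the shorter peak. Peaks of at most 55 bp, near the narrowest in the lists, supplied the ARID1B side of 73 regions and the ARID1A side of 37. At the edge of the rule, 24 regions rested on at most 10 shared bp, while just outside it were 29 regions with ARID1A as their sole ARID and an ARID1B peak at most 10 bases away. Another 14 regions were left out because of an ARID2 overlap of at most 10 bp. The merged regions had a median width of 370 bp (quartiles 254 and 553, range 54 to 2071).

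**Figure D1:**
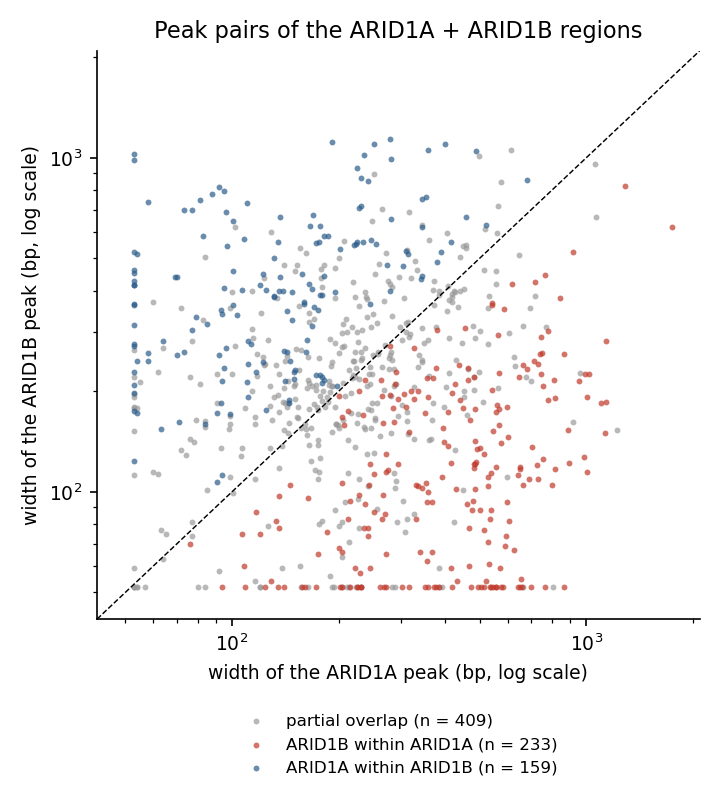
Width of the ARID1A peak (x axis, bp, log scale) against that of the ARID1B peak (y axis, bp, log scale) in each of the 801 regions, with 1 point per region coloured by how the peaks overlap and a dashed line at equal width. The ARID1A peak was the wider in 431 regions, and points line up along the narrowest widths of both lists.

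Absence of ARID2 from a region did not mean that ARID2 was far away. The nearest ARID2 peak lay a median of 4595 bases from the region, with quartiles of 452 and 42316 bases. It lay within 1000 bases in 292 regions (36.5%, Wilson 95% interval 33.2 to 39.8) and within 100 bases in 68 (8.49%). Promoter regions had ARID2 within 1000 bases in 184 of 418 cases (44%) and the others in 108 of 383 (28.2%). With those 292 set aside, 509 regions and 492 gene names remained. These distances follow in part from the rule and were not tested. They were not set beside those of other regions without an ARID2 peak, so they are not shown to be particular to these regions.

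**Figure D2:**
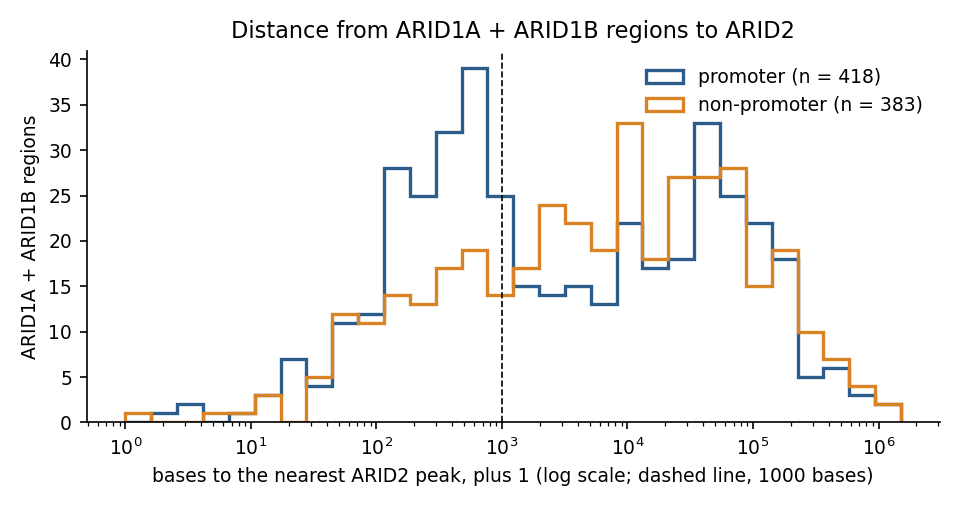
Number of ARID1A + ARID1B regions (y axis) by the bases between the region and the nearest ARID2 peak, plus 1 (x axis, log scale), for 418 promoter and 383 non-promoter regions. At or below the dashed line at 1000 bases lie 184 of the 418 promoter regions and 108 of the 383 non-promoter regions.

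The first comparison asked where in the genome the regions lay. Promoters, taken as the deposited class of peaks near a transcription start site (TSS), held 418 of the 801 regions (52.2%, 95% interval 48.7 to 55.6), against 57.9% of all merged regions. A further 189 regions (23.6%) were intronic, 171 (21.3%) distal and 23 (2.87%) exonic. Promoter regions lay a median of 71 bp from the TSS, and the other regions 8030 bp (quartiles 3218 and 17182). The promoter share fell between those of the other shared classes. It was lower than the 86.3% of the 3146 regions with ARID1A and ARID2 (odds ratio 0.174, 95% interval 0.146 to 0.206, exact adjusted p = 3.72e-87, two-sided Fisher exact test with Benjamini-Hochberg adjustment over 3 tests). It was also lower than the 72.8% of the 1907 regions with all 3 ARIDs (odds ratio 0.408, interval 0.344 to 0.484, exact adjusted p = 2.50e-24). It was higher than the 39.6% of the 535 regions with ARID1B and ARID2 (odds ratio 1.66, interval 1.33 to 2.08, exact adjusted p = 7.48e-06). This last difference did not hold among regions of like GC content, where the odds ratio was 0.804 (adjusted p = 0.122, Mantel-Haenszel chi-square test over 5 strata). The median GC content of the 300 bp around the region's midpoint was 60.7% for ARID1A with ARID1B (quartiles 48% and 69.3%), and the quartiles for ARID1B with ARID2 were 43.3% and 58.7%.

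**Figure D3:**
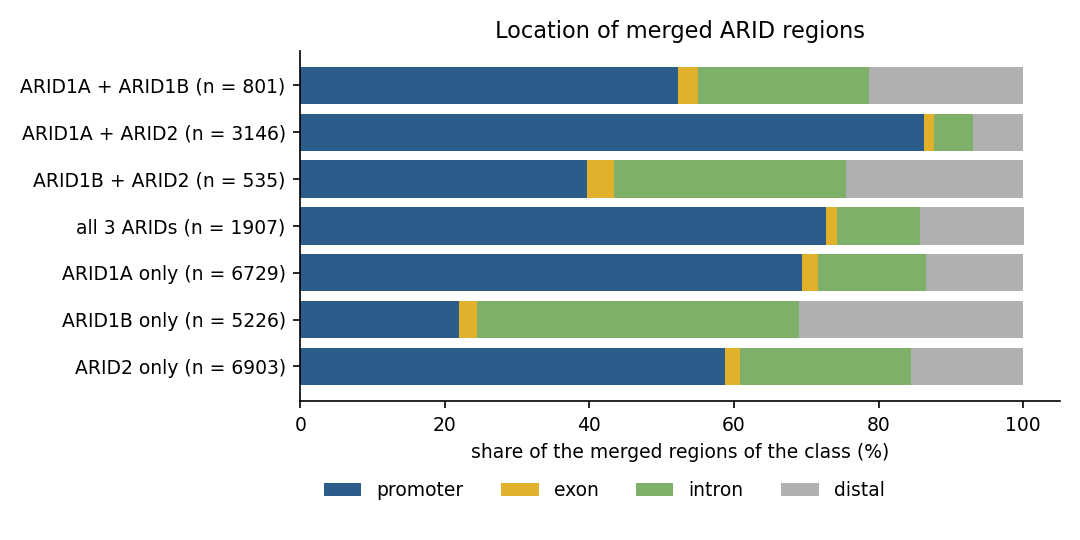
Share of merged regions (x axis, %) in the promoter, exon, intron and distal classes for each combination of ARIDs (y axis, with the number of regions). The ARID1A + ARID1B bar is 52.2% promoter, between ARID1B + ARID2 at 39.6% and all 3 ARIDs at 72.8%.

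The second comparison asked how often the core subunit was found at these regions. SNF5 peaks overlapped 698 of the 801 regions (87.1%, 95% interval 84.6 to 89.3), against 60.0% of all merged regions, most of which held a single ARID. The share was lower than the 97.4% of regions with all 3 ARIDs (odds ratio 0.179, interval 0.126 to 0.254, exact adjusted p = 4.09e-23, Fisher exact test). It was not distinguishable from the 87.6% of ARID1A with ARID2 (odds ratio 0.959, interval 0.760 to 1.21, exact adjusted p = 0.720) or the 86.2% of ARID1B with ARID2 (odds ratio 1.09, interval 0.789 to 1.5, exact adjusted p = 0.720). Regions with all 3 ARIDs were also wider, with a median of 720 bp, and within strata of region width the odds ratio moved closer to 1, to 0.444 (adjusted p = 4.60e-05, Mantel-Haenszel chi-square test). SNF5 was found at 151 of 171 distal (88.3%), 161 of 189 intronic (85.2%) and 23 of 23 exonic regions.

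Separated by location, SNF5 overlapped 363 of 418 promoter regions (86.8%) and 335 of 383 other regions (87.5%). Against ARID1B with ARID2 the promoter share was higher, 86.8% against 78.3% (odds ratio 1.83, interval 1.19 to 2.82, exact adjusted p = 0.0159 over 6 Fisher exact tests), whereas outside promoters it was 87.5% against 91.3% (odds ratio 0.662, interval 0.405 to 1.08, exact adjusted p = 0.170). Against regions with all 3 ARIDs the share was lower at promoters (97.0%, exact adjusted p = 1.27e-12) and elsewhere (98.7%, exact adjusted p = 7.05e-12). Against ARID1A with ARID2 neither location showed a difference past the threshold (87.7% and 87.3%, exact adjusted p = 0.760 and 1.00).

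**Figure D4:**
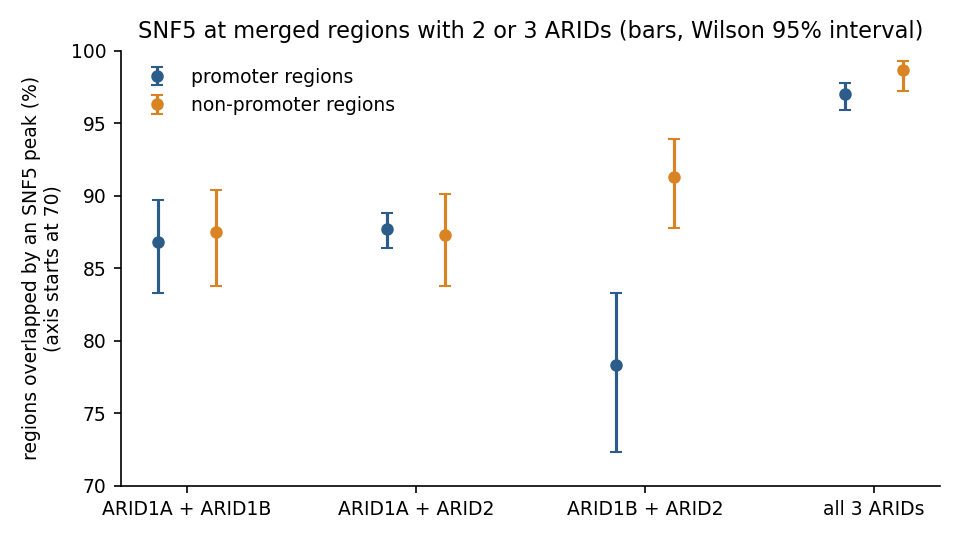
Share of regions overlapped by an SNF5 peak (y axis, %, starting at 70) for the 4 combinations of 2 or 3 ARIDs (x axis), with promoter and non-promoter regions apart and bars for Wilson 95% intervals. ARID1A + ARID1B regions sit at 86.8% and 87.5%, while ARID1B + ARID2 regions sit at 78.3% and 91.3%.

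Where SNF5 was present, a region took the highest deposited score (whole numbers given by the peak caller) among the SNF5 peaks overlapping it. This score had a median of 24 (quartiles 20 and 28, range 11 to 89). The score was at or above 19, the median of the whole SNF5 list, at 575 of 698 regions (82.4%), against 77.5% of all merged regions with SNF5. This share was lower than the 92.6% of regions with all 3 ARIDs (odds ratio 0.375, interval 0.289 to 0.487, exact adjusted p = 1.44e-12) and was not distinguishable from 82.2% for ARID1A with ARID2 (odds ratio 1.01, interval 0.813 to 1.26, exact adjusted p = 0.956) or 85.9% for ARID1B with ARID2 (odds ratio 0.767, interval 0.553 to 1.06, exact adjusted p = 0.183). With the bar raised to the upper quartile of SNF5 scores, the share was 50.7% against 45.4% for ARID1A with ARID2 (odds ratio 1.24, exact adjusted p = 0.0183). A wider region can overlap more SNF5 peaks, and the score was not compared within strata of region width.

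The third comparison asked which short sequences the regions held. AP-1 letters were found in 71 of the 383 non-promoter windows (18.5%, interval 15.0 to 22.7), against 11.5% of all 10638 non-promoter regions. Windows were the 300 bp centred on each region, and each motif was searched on both strands with any overlap between motifs allowed. Against the 11.3% of all other non-promoter regions the odds ratio was 1.79 (interval 1.37 to 2.33, exact adjusted p = 0.000534, Fisher exact test over 13 motifs and both locations, 26 tests). The share also exceeded the 11.7% of the 1274 other non-promoter regions with 2 or 3 ARIDs (odds ratio 1.72, interval 1.26 to 2.34, exact adjusted p = 0.00682), a comparison set added after the data were seen. AP-1 is bound by FOS and JUN family dimers. The pattern searched leaves its middle base open, so letters such as TGATTCA were counted along with TGACTCA. These forms were not counted apart, so the AP-1 counts do not stand for FOS and JUN sites alone. The AP-1 share at promoters was 4.55% against 5.14% of the other promoter regions (odds ratio 0.879, interval 0.552 to 1.40, exact adjusted p = 0.772).

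Letters for liver factors were also more frequent outside promoters. CEBP, the site of C/EBP factors, was found in 85 windows (22.2%), with 16.2% of all non-promoter regions as background. Against the 16% of the other non-promoter regions the difference passed the test (odds ratio 1.5, interval 1.17 to 1.92, exact adjusted p = 0.0159). FOXA, the site of the forkhead pioneer factors, was found in 42 (11%), with a background of 6.86%. Against the 6.71% of the other non-promoter regions this difference also passed (odds ratio 1.71, interval 1.23 to 2.38, exact adjusted p = 0.0170). Neither passed the threshold against the other regions with 2 or 3 ARIDs, where the shares were 17.8% for CEBP (exact adjusted p = 0.147) and 9.65% for FOXA (exact adjusted p = 0.670). HNF4 letters were in 13 windows (3.39% against 1.77% of all other non-promoter regions, exact adjusted p = 0.119) and HNF1 letters (GTTAATNAT) in 8 (2.09% against 1.23%, exact adjusted p = 0.333). In all, 131 of the 383 non-promoter regions (34.2%) held letters of at least 1 of these 4 liver factors, with 23.9% of all non-promoter regions beside them. Both these letters and AP-1 were held by 32 (8.36%, beside 3.15% of all), and 213 held none of the 5 (55.6%, beside 67.7% of all). These combined counts were not tested. They were set beside all non-promoter regions, most of which held a single ARID, and not beside the other regions with 2 or 3 ARIDs.

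At promoters, SP/KLF letters were common, being found in 272 of 418 promoter windows (65.1%), with 54.2% of all 14609 promoter regions as background. Against the 53.9% of the other promoter regions the odds ratio was 1.59 (interval 1.30 to 1.95, exact adjusted p = 0.000142). Against the 4314 other promoter regions with 2 or 3 ARIDs, of which 64.7% held them, it was 1.02 (exact adjusted p = 0.988). The median GC content of these windows was 67.3%, and within strata of GC content the SP/KLF odds ratio was 1.03 (adjusted p = 0.963, Mantel-Haenszel chi-square test). Letters for NRF1 (GCATGCGC), an activator of genes for mitochondrial function, were found in 7 promoter windows (1.67%), with 4.13% of all promoter regions as background. Against the 4.21% of the other promoter regions the odds ratio was 0.388 (interval 0.183 to 0.822, exact adjusted p = 0.0426). That call was lost when regions within 1000 bp of an ARID2 peak were left out, where 2.56% of the windows held the letters (odds ratio 0.599, exact adjusted p = 0.651), and when multi-copy small RNA names were left out (odds ratio 0.405, exact adjusted p = 0.0548). The contrast was wider against the 4314 other promoter regions with 2 or 3 ARIDs, of which 8.74% held them (odds ratio 0.178, interval 0.0836 to 0.378, exact adjusted p = 1.40e-07), and it was past the threshold within strata of GC content as well. There the odds ratio was 0.176 (adjusted p = 1.93e-05, Mantel-Haenszel chi-square test). The pooled promoter regions were not alike, with shares of 10.2% for ARID1A with ARID2, 7.06% with all 3 ARIDs and 0.472% for ARID1B with ARID2. Promoter regions with a single ARID held them in 2.44% (ARID1A), 1.31% (ARID1B) and 2.24% (ARID2). A low NRF1 share was thus not particular to ARID1A with ARID1B. Outside promoters NRF1 letters were in 1 of 383 windows (0.261%) against 2.90% of the other regions with 2 or 3 ARIDs (odds ratio 0.0875, interval 0.0120 to 0.640, exact adjusted p = 0.00682). These others also differed, at 4.86% for ARID1A with ARID2, 2.70% with all 3 and 0.619% for ARID1B with ARID2. The other motifs searched were TEAD (GGAATG), CTCF (AGGGGGC), ETS (CCGGAAG), E-box (CACGTG), NFY (CCAAT) and YY1 (AAGATGGC). None of these 6 passed the threshold at either location against all other regions, with adjusted p from 0.194 to 1.00. A match is a description of letters and not evidence of a bound factor.

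**Figure D5:**
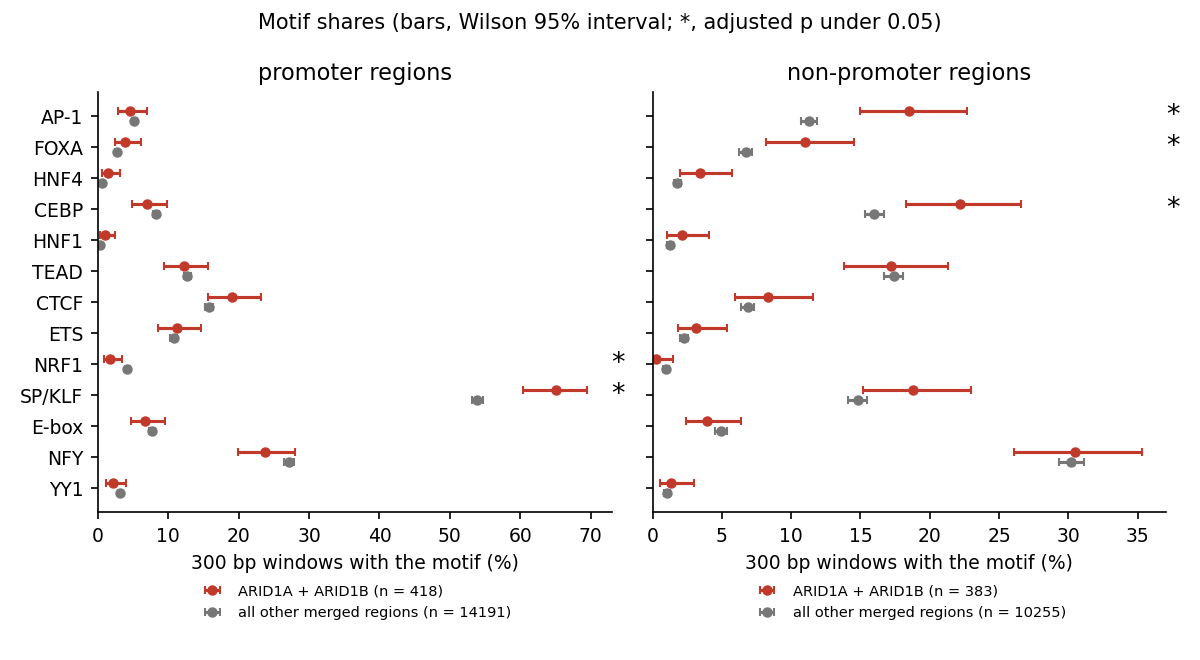
Share of 300 bp windows holding each motif (x axis, %) for ARID1A + ARID1B regions (red) and all other merged regions (grey), in promoter and non-promoter regions, with Wilson 95% intervals and a star where the adjusted p was under 0.05. Stars stand beside NRF1 and SP/KLF at promoters and beside AP-1, FOXA and CEBP elsewhere.

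The nearest genes were spread thinly. The 801 regions were assigned to 761 gene names, 6.12% of the 12428 names assigned to any ARID peak, and 715 of them had exactly 1 such region. ARID2 had a peak elsewhere at 431 of the names (56.6%), beside 62.8% of all names with an ARID2 peak. No other ARID region was assigned to 188 of the names (24.7%), while 53.5% of all names had exactly 1 ARID region. Of the 351 names of non-promoter regions, 168 (47.9%) also had a promoter region of some ARID combination, beside 46.0% of the 5453 names of non-promoter regions of any class. These shares of names were not tested, and they follow in part from how the names were picked. A name with more ARID regions had more chances to hold a member. The rule also kept ARID2 out of the member regions, while names with ARID2 alone count among all names. In Gencode v44, 567 of the 761 names were found, and 489 of these are protein coding. The names not found, which the authors took from an older Gencode version, were left unclassified. The protein coding share of all 12428 names was not counted, so these counts do not describe the 761 names as a whole.

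SLC7A5, which imports leucine and other large amino acids, had 5 regions, as did the multi-copy names Metazoa_SRP and U6. In all, 22 ARID1A, 13 ARID1B and 14 ARID2 peaks were assigned to SLC7A5. The 5 SLC7A5 regions ran from chr16:87883085-87883396 in an intron to chr16:87902605-87903655 at the promoter, 7 bp from the TSS. SNF5 overlapped all 5, with scores of 18, 32, 32, 14 and 26 (the equal scores belong to 1 shared SNF5 peak), and ARID2 lay 18 bases from the promoter region and between 282 and 3909 bases from the other 4. SEPT9, a septin of the cytoskeleton, had 3 regions of the promoter class with SNF5 scores of 24, 26 and 34, and was assigned 21 ARID1A, 15 ARID1B and 12 ARID2 peaks in all. Among the widest regions, 3 lay in the 5S ribosomal RNA gene cluster of chromosome 1, nearest to RNA5S8, RNA5S10 and RNA5S17 (1285, 1938 and 2019 bp). Other members of the promoter class lay along the same cluster, from chr1:228747861-228748124 nearest to RNA5S2 onward. Several of the cluster had equal SNF5 values, as did those nearest to RNA5S15, RNA5S16 and RNA5S17 (score 20, peak width 5158 bp), so they are not independent. The widest of all, 2071 bp at chr16:90234930-90237000, was nearest to RP11-356C4.5. A region of 1370 bp lay 25607 bp from PTMA, which encodes prothymosin alpha. Reads from repeated copies cannot be placed with certainty, so the 5S assignments are uncertain. U6, SNORA31 and Metazoa_SRP are each a name shared by many loci, and the regions of each lay on more than 1 chromosome. Their assignments are also uncertain, and their counts are not those of a single locus such as SLC7A5.

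The gene lists were read against the 6.12% of all names. Across 13 lists, 27 of the 310 genes with any ARID peak (8.71%) had an ARID1A and ARID1B region. Hepatocyte transcription factors had 3 of 26 (FOXA2, GATA4 and HHEX). The region at FOXA2, a forkhead pioneer factor, was at the promoter, 13 bp from the TSS (chr20:22566055-22566218), had an SNF5 score of 23 and lay 194 bases from ARID2. HHEX, a homeobox factor of early liver, had a distal region at chr10:94455449-94455806 with AP-1 letters. GATA4 had an intronic region with CEBP, HNF1 and TEAD letters, 11766 bases from ARID2. Secreted plasma proteins had 3 of 46. The transferrin gene TF had a region 14 bp from its TSS (chr3:133464969-133465408). SERPINA1, which encodes alpha-1 antitrypsin, had a distal region with an SNF5 score of 36, 104487 bases from the nearest ARID2 peak and with 0 ARID2 peaks assigned to the gene. APOC3, an apolipoprotein, had an intronic region (chr11:116702929-116703170). CEBP letters were held by the regions of SERPINA1 (with TEAD and NFY), APOC3 (with NFY) and TF (with TEAD, ETS, SP/KLF and NFY). The FOXA2 region held SP/KLF letters alone. Letters at named genes were searched over the whole region and not in the 300 bp window of the shares above, and no background was counted for them.

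Signalling genes made up much of the rest. In the Wnt and beta-catenin list 5 of 29 genes had a region: CTNNB1, which encodes beta-catenin, 7 bp from the TSS, the feedback inhibitor AXIN2 in an intron, the transcription factor TCF7 at a distal site, the receptor FZD5 in an exon, and the corepressor TLE1 in an intron. The AXIN2 region had no SNF5 peak, and the other 4 had scores of 18, 20, 32 and 25. In the TGF-beta and SMAD list 4 of 33 had a region, namely the effector SMAD3 and the repressor TGIF1 at promoters and the ubiquitin ligases SMURF1 and SMURF2 at distal sites 27008 and 42668 bp from the TSS. In the integrin and focal adhesion list 4 of 25 had a region (ACTN4, TGFB1I1, the kinase SRC and TNS1, which encodes the focal adhesion protein tensin 1), and the TNS1 pair shared 9 bp. Among SWI/SNF subunit genes 3 of 24 had a region. The region nearest to ARID1B itself was distal, 57796 bp from the TSS (chr6:157041129-157041395), with an SNF5 score of 35 and 56778 bases to ARID2. ACTB, which encodes the actin subunit, had a promoter region of 1005 bp, and GLTSCR1 had a promoter region of 279 bp.

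The remaining lists held few. AP-1 genes had 1 of 20 (FOSB, 353 bp from the TSS), the TEAD and YAP list 1 of 20 (TEAD4), and nuclear receptors 1 of 29 (RARA, the retinoic acid receptor, with 2 regions, both without SNF5). The KLF family (8 genes with any ARID peak), the insulin and IGF axis (15) and the ephrins and their receptors (8) had 0. Of the loci the study examined, MYC had 1 region of its 9 ARID regions, an intronic site 232 bases from ARID2 with an SNF5 score of 22, and SPOCK2 had 1 of 6, a distal site 154 bases from ARID2 with a score of 27. By nearest gene name, KLF6 had 0 of its 2 ARID regions, EPHA2 0 of 3 and RRAS 0 of 1. No ARID region was assigned to S100A14 or TNS4. A locus can hold peaks assigned to another name, so these counts do not show that a locus was unbound. The paper describes ARID1A and ARID1B upstream of the EPHA2 start site, and took S100A14 and TNS4 as direct targets from its ChIP-seq.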

How the data were processed

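The authors aligned reads to hg19 with Bowtie2 (per the labels' processing notes and the study's methods), removed duplicates, merged both replicates of each antibody, called broad peaks with MACS2, joined peaks within 100 bp and removed blacklisted regions. The deposited positions and TSS distances are in bp, and the deposited peak score, present in the SNF5 list alone, is a whole number whose scale was not stated. Libraries were grouped by the antibody in their titles. The input library was not used here. Depth could not be read from the lists, so intervals cover counting error over regions only.

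Peaks of the 3 ARID lists were merged at 1 bp of overlap. A region took the class of its most TSS-proximal kind of peak (promoter, then exon, intron, distal). Two-sided Fisher exact tests compared shares (scipy, pandas and statsmodels in python), with Benjamini-Hochberg adjustment within each family, a threshold of 0.05 and Wilson 95% intervals. Motifs, GC content and printed sequences came from GRCh37, in which every region ended before the end of its chromosome. Gene positions came from Gencode v44 lifted to GRCh37. Code was tested on simulated data.

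The deposited chromatin state column, whose origin is not given in the sources used here, was left out. Overlapping ARID1A and ARID1B peaks carried the same feature class in 97.4% and the same gene in 93.3% of 2880 pairs. They carried the same state in 86.2% of pairs on chromosome 1 but 39.3% on the others. Each of the 3 lists was checked on every chromosome where it had at least 150 peaks, which gave 61 combinations of list and chromosome. Promoter class and promoter states matched best with the state column moved by 1 or more lines in 52 of the 61 (shifts of up to 40 lines were tried). The best match was weak in some, such as a correlation of 0.135 for ARID2 on chromosome 19. A planned comparison of enhancer states was therefore not made.

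The members, lists, motifs and tests were chosen with earlier results of these data known. Genes named are the 8 with the most regions, those of the 8 widest regions, list members with a region, and loci the study examined. Sequences were ranked by motif kinds, leaving out UTRs and chromosome 8. Some list members and sequences are not reported here. Alternatives are given in the closing section.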

Additional observations from a re-analysis of the deposited data

Results flagged for a closer look

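The difference in SNF5 overlap between ARID1A with ARID1B regions and ARID1B with ARID2 regions depended on location. The odds ratio was 1.83 at promoters and 0.662 elsewhere, a ratio of 2.76 between them (Breslow-Day chi-square test, p = 0.00218, adjusted p = 0.00655 over 3 comparisons). The ARID1B with ARID2 shares were 78.3% at promoters and 91.3% elsewhere, and the ARID1A with ARID1B shares were 86.8% and 87.5%. Median GC content at promoters was 67.3% for ARID1A with ARID1B and 56.3% for ARID1B with ARID2, and its part in the result was not tested.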

How the results depend on the processing

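Of 138 alternatives run for 24 results, 108 left the direction and the side of the threshold as they were, or moved a count by less than 1.5 times. Of the 138, 107 were planned and 31 were added after the data were seen. No paired analysis was possible because peaks were called on merged replicates, and leaving out a replicate was not possible for the same reason. The enhancer state comparison and its alternatives were not run (the state column is described above).

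The promoter share stayed lower than in ARID1A with ARID2 regions and in regions with all 3 ARIDs under all 10 alternatives run for each. Against ARID1B with ARID2 it reversed within strata of GC content (odds ratio 0.804, adjusted p = 0.122, chi-square test). SNF5 overlap stayed lower than with all 3 ARIDs under all 8 alternatives. Over all locations, the comparison with ARID1A with ARID2 changed direction under 1 of 8 alternatives (odds ratio 1.15 within strata of width) and that with ARID1B with ARID2 under 4 of 8, none past the threshold. The latter odds ratio was 0.901 with no ARID2 peak within 1000 bp, 0.865 with peaks at most 1000 bp apart joined, 0.677 with SNF5 counted within 1000 bp and 0.893 with SNF5 scores at or above the median. For the SNF5 score, a bar at the upper quartile gave odds ratios of 1.24 against ARID1A with ARID2 (now past the threshold) and 1.03 against ARID1B with ARID2, and strata of SNF5 peak width gave 0.963 against ARID1A with ARID2. Leaving out regions within 1000 bp of ARID2 left 509 regions and 492 gene names.

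Motif tests with a higher share fell from 4 to 1 against the other regions with 2 or 3 ARIDs (AP-1 outside promoters) and to 2 with GC strata added (AP-1, and HNF1 at promoters with 4 windows). Tests with a lower share numbered 1 (NRF1 at promoters), then 3 and 2 under the same settings (NRF1 at both locations, and E-box outside promoters without GC strata), and 0 without multi-copy small RNA names, where NRF1 at promoters had an odds ratio of 0.405 (exact adjusted p = 0.0548). It also lost the threshold with no ARID2 peak within 1000 bp (0.599, exact adjusted p = 0.651). SP/KLF at promoters reversed to 0.875 against the other regions with 2 or 3 ARIDs within GC strata. AP-1 outside promoters stayed past the threshold under all 9 alternatives. CEBP lost it under 5 of 9 and FOXA under 4 of 9, the narrower 200 bp window among them for both. The cause of these changes was not tested, also where a setting left fewer regions.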

Other observations

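The share of the regions on each chromosome was set beside that of all merged regions, with no test. Chromosome 2 held 99 of the 801 (12.4%, against 9.47% of all merged regions), chromosome 16 held 67 (8.36% against 6.48%), chromosome 4 held 12 (1.5% against 2.90%) and chromosome 14 held 13 (1.62% against 3.17%). Chromosomes 21 and X, which held 0.558% and 0.463% of all merged regions, held 0 regions. The number of copies of each chromosome in these cells was not measured here.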
